A study of Mus musculus with 54 samples.

Results

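Retinoid metabolism genes, which make, carry, sense and clear vitamin A and its active acid, were followed across both sides of ex vivo ovulating mouse follicles. The group comprised 9 genes taken by symbol from the 25149 genes of the count and TPM tables, namely Aldh1a1, Aldh1a2, Dhrs3, Rdh10, Crabp2, Cyp26b1, Rara, Rarg and Stra6. The genes were chosen on results of the same libraries, whose expression differences between the groups were already known, so their differences between groups are given as a description, with the fold change, its standard error (SE) and the false discovery rate (FDR) that each received among all genes tested, and no support is drawn from them. Follicles from female CD-1 mice aged 14 to 16 days were encapsulated in the hydrogel alginate and grown for 8 days, and then spent 12 h in maturation medium with fetal bovine serum, EGF and recombinant FSH, either without hCG or with hCG, an analog of luteinizing hormone that induces ovulation. Each follicle was microdissected into 2 sides, the cumulus-oocyte complex was discarded, and RNA of the single sides was amplified and sequenced. The 54 libraries were 15 of the putative unruptured side and 14 of the putative ruptured side without hCG, where the sides were told apart by the morphology that predicts rupture, and 12 of the unruptured side and 13 of the ruptured side post-hCG.

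Although the tissue is labelled cumulus-oocyte complex, oocyte markers were at or near 0, and their summed level was below 10 TPM in 52 libraries and reached 133 TPM in replicate 1 of the putative unruptured side and 21.4 TPM in replicate 12 of the putative ruptured side. Enzymatic isolation strips part of the theca, the outer stromal and androgen-producing layer, which grows back in culture. The labels number replicates but do not say which sides came from the same follicle or in which batch a library was made, so p-values measure only the spread between these libraries. Each label also holds a code of a letter and a number, and these codes run group by group. Letters B to D are with hCG and F to H without, and each side has its own run. Anything that follows this order cannot be told apart from side or medium. Total counts ran from 1497138 to 2834794 per library with a median of 2157135, and mitochondrially encoded genes took 2.05% to 10.7% of them.

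Vitamin A travels in blood as retinol bound to Rbp4 and enters cells through the membrane receptor Stra6 or by diffusion. Retinol dehydrogenases such as Rdh10 oxidize it to retinal, the reductase Dhrs3 turns retinal back into retinol, and the retinaldehyde dehydrogenases Aldh1a1 and Aldh1a2 oxidize retinal irreversibly to retinoic acid. The carrier Crabp2 brings retinoic acid to the receptors Rara, Rarb and Rarg, which bind DNA as partners of the retinoid X receptors, and Cyp26 enzymes such as Cyp26b1 hydroxylate retinoic acid for clearance. In the ovary this pathway is best known for the entry of fetal germ cells into meiosis, and follicle cells also make retinoic acid.

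The genes lie on 8 chromosomes of GRCm38 in the GENCODE annotation. Aldh1a1 spans chr19:20492715-20643465 on the plus strand, next to its paralog Aldh1a7, with which it can share reads, and both carried fractional counts. Aldh1a2 spans chr9:71215789-71296243, Dhrs3 chr4:144892827-144928209, Rdh10 chr1:16105774-16133734, Crabp2 chr3:87948666-87953376, Rara chr11:98927818-98974942 and Stra6 chr9:58063788-58153996, all on the plus strand. Cyp26b1, at chr6:84571414-84593908, and Rarg, at chr15:102234938-102257517, are on the minus strand. All 9 are protein-coding, and counts and TPM here are per gene, so the start site in use cannot be read from them.

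The stretches before the start of 4 of them are shown because 3 of these genes, Aldh1a1, Aldh1a2 and Dhrs3, were lower on the putative ruptured side and Cyp26b1 had nearly all of its counts post-hCG. They are GRCm38.p6 sequence from RefSeq, 5′ to 3′ on the strand of the gene, from 250 bases before an annotated start to the first base that GENCODE counts as exon. Capitals mark a match on either strand to CCAAT, to the box TATAAA, to ATAAAA (which can overlap the latter), to the hexamers of retinoid receptors, spelled AGGTCA with the variants GGGTCA, then AGTTCA, then GGTTCA, or to the cyclic AMP response element TGACGTCA.
Aldh1a1, chr19:20601718-20601960, plus strand: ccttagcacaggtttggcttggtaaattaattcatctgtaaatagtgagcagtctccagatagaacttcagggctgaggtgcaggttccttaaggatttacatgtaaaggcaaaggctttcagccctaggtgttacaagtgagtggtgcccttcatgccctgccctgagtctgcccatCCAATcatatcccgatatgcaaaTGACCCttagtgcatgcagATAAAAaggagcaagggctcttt
Aldh1a2, chr9:71215539-71215788, plus strand: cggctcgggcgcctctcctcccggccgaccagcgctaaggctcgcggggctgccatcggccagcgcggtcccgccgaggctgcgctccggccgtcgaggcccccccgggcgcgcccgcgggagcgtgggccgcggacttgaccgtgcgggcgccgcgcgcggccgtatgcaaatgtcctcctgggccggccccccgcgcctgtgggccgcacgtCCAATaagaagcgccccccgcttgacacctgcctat
Dhrs3, chr4:144892577-144892826, plus strand: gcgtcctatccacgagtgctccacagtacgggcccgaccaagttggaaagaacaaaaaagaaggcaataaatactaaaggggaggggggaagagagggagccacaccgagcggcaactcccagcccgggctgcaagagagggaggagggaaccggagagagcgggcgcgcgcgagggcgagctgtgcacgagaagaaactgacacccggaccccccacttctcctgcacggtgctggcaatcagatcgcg
Cyp26b1, chr6:84593909-84594060, minus strand: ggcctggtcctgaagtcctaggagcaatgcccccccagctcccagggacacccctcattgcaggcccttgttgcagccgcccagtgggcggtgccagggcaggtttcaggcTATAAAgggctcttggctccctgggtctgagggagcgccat

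The Aldh1a1 stretch held the box CCAAT, the motif ATAAAA and, on the reverse strand, the hexamer GGGTCA, while the Aldh1a2 stretch held CCAAT, that of Cyp26b1 TATAAA and that of Dhrs3 no match. The other RefSeq windows of Dhrs3, which begin inside an annotated exon and are not shown, held CCAAT on the reverse strand. The stretches shown are shorter than the windows of 300 bases. Among all 32851 RefSeq promoter windows of 300 bases, 37.4% held CCAAT, 13.6% TATAAA, 18.5% ATAAAA, 13.7% GGGTCA, 16.3% AGGTCA, 14.0% AGTTCA, 10.4% GGTTCA and 1.79% TGACGTCA. A direct repeat of the 4 hexamers with a spacing of 1, 2 or 5 bases was in 0.222%, 0.268% and 0.0974% of all windows and in none of the 17 windows that the table holds for 7 of the retinoid genes. These matches describe letters only.

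Aldh1a1, the retinaldehyde dehydrogenase with the highest level here, fell from the highest of the 9 genes on the putative unruptured side to a few reads on the ruptured side post-hCG. Putative unruptured libraries ranged from 56.2 to 753 TPM, a level per transcript length, with a median of 149, which was rank 391 of 25149 genes. Putative ruptured libraries ranged from 4.68 to 394 TPM (median 32.4), unruptured libraries post-hCG from 7.03 to 35.5 (median 16.9) and ruptured libraries post-hCG from 0 to 2.39 (median 0.34), where 3 of 13 had no count. The putative sides overlapped, with 11 of 14 putative ruptured libraries below every putative unruptured one, whereas the post-hCG sides did not overlap, nor did the libraries of either side with and without hCG. The means of putative ruptured and unruptured post-hCG libraries, neighbours in the order of levels, differed by less than their pooled standard deviation (SD).

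The fitted log2 fold change (log2FC) of Aldh1a1 on the ruptured relative to the unruptured side was −1.93 ± 0.51 (SE, FDR 0.00761) without hCG and −4.25 ± 0.35 (FDR 1.08e-09) post-hCG. With hCG relative to without, it was −4.01 ± 0.40 (FDR 5.05e-10) on the unruptured side and −6.35 ± 0.68 (FDR 1.27e-09) on the ruptured side. Replicate 11 of the putative ruptured side held 40.1% of the 5564 Aldh1a1 counts of that group, and without it the last value was −5.76. Aldh1a7, a paralog at lower level, had 412 estimated counts in putative unruptured, 99.8 in putative ruptured, 10.2 in unruptured post-hCG and 0 in all 13 ruptured post-hCG libraries.

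Aldh1a2, the retinaldehyde dehydrogenase that supplies most retinoic acid in the embryo, followed the same order of the 4 groups at a lower level. Its levels ran from 7.82 to 122 TPM (median 22.9) in putative unruptured, 0.80 to 14.3 (median 7.05) in putative ruptured, 0.34 to 7.20 (median 1.49) in unruptured post-hCG and 0 to 1.35 (median 0.27) in ruptured post-hCG libraries. All 12 unruptured libraries post-hCG lay below all 15 without hCG. Groups that were neighbours in the order of levels all overlapped, while their means differed by more than their pooled SD. Its log2FC was −2.11 ± 0.37 (FDR 1.18e-04) between the sides without hCG, −3.65 ± 0.42 (FDR 8.87e-09) for hCG on the unruptured side and −3.73 ± 0.42 (FDR 2.95e-09) for hCG on the ruptured side. Post-hCG, its 184 counts from unruptured and 40 from ruptured libraries were below the filter on low counts, and over pooled counts the level was 5.25-fold higher on the unruptured side (95% counting interval 3.71 to 7.58).

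Rdh10, the dehydrogenase that sets the pace of retinal formation from retinol, varied less. The ranges were 1.16 to 13.9 TPM (median 6.88) in putative unruptured, 0.49 to 14.4 (median 2.81) in putative ruptured, 2.30 to 10.5 (median 5.88) in unruptured post-hCG and 0.89 to 4.56 (median 2.86) in ruptured post-hCG libraries. It was lower on the ruptured side post-hCG, with a log2FC of −1.06 ± 0.22 (FDR 4.44e-04), with 8 of 12 unruptured libraries above every ruptured one. Without hCG the value was −0.66 ± 0.36 (FDR 0.216), and hCG gave −0.19 ± 0.26 (FDR 0.563) on the unruptured and −0.59 ± 0.35 (FDR 0.139) on the ruptured side. The latter passed the threshold when libraries were scaled by their totals alone (−0.93, FDR 0.0258).

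Dhrs3, which reduces retinal to retinol and is itself known to be induced by retinoic acid, differed by side far more post-hCG than without hCG. Its levels ran from 3.14 to 33.6 TPM (median 7.52) in putative unruptured, 1.23 to 13 (median 4.20) in putative ruptured and 4.33 to 27.6 (median 11.1) in unruptured post-hCG libraries. On the ruptured side post-hCG it was listed at 0 in 7 of 13 libraries and reached 2.19 TPM, with 18 counts in all, 9 of them in replicate 4. No ruptured library post-hCG reached the lowest unruptured one.

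The log2FC of Dhrs3 between the sides was −1.60 ± 0.34 (FDR 9.61e-04) without hCG and −4.99 ± 0.44 (FDR 3.64e-09) post-hCG, or −5.74 without replicate 4. On the unruptured side hCG gave −0.06 ± 0.32 (FDR 0.901). On the ruptured side it was under the filter on low counts for the hCG comparison, and pooled counts relative to library totals were 14.3-fold higher without hCG (95% counting interval 8.82 to 24.5). The difference of the 2 side differences, tested as an interaction over all 54 libraries, was −3.40 ± 0.66 (FDR 4.27e-04).

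Crabp2, the carrier that delivers retinoic acid to its nuclear receptors, went the other way, with its highest level on the putative ruptured side. It ranged there from 19.9 to 215 TPM (median 61.6, rank 739 of 25149 genes), against 3.88 to 55.9 (median 13.9) on the putative unruptured side. Replicate 15 of the putative unruptured side, at 55.9 TPM, stood above the other 14, which stayed at or below 24.6. Post-hCG the ranges were 14.3 to 41.5 TPM (median 22.4) on the ruptured side and 4.81 to 19.2 (median 14.4) on the unruptured side. Both media had overlapping sides, and 8 of 14 putative ruptured libraries and 10 of 13 ruptured libraries post-hCG exceeded every library of the other side.

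On the ruptured relative to the unruptured side, Crabp2 had a log2FC of 2.29 ± 0.33 (FDR 1.13e-05) without hCG and 1.05 ± 0.17 (FDR 3.81e-05) post-hCG. With hCG it was lower on the ruptured side, at −1.58 ± 0.28 (FDR 1.43e-05), and on the unruptured side the value was −0.35 ± 0.27 (FDR 0.284). On the ruptured side post-hCG Crabp2 was the highest of the 9 genes by TPM, where Aldh1a1, Aldh1a2 and Dhrs3 were each below 2.5 TPM in every library.

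Stra6, the membrane receptor for retinol bound to Rbp4, was near the limit of detection. It ranged from 0.08 to 2.73 TPM (median 1.19) in putative unruptured, 0 to 2.30 (median 0.365) in putative ruptured, 0 to 1.02 (median 0.115) in unruptured post-hCG and 0 to 0.47 (median 0.09) in ruptured post-hCG libraries. It was under the filter in each comparison. Pooled counts were 167, 53, 16 and 12 in that order, which is 2.26-fold higher on the putative unruptured than the putative ruptured side (95% counting interval 1.65 to 3.13) and 7.72-fold higher without than with hCG on the unruptured side (4.62 to 13.8). The post-hCG sides were not distinguishable at this depth (ratio 1.52, 0.675 to 3.52). Such intervals cover counting error and not the spread between libraries. With no filter, edgeR gave −1.11 (FDR 0.107) between the sides without hCG and −2.65 (FDR 4.88e-05) for hCG on the unruptured side. DESeq2 gave −1.10 (FDR 0.0894) and −2.73 (FDR 2.28e-06) in turn. Replicate 12 of the putative ruptured side held 32.1% of the 53 counts of that group.

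Cyp26b1, which clears retinoic acid, was the one retinoid gene here with more counts post-hCG on both sides. Without hCG it had 1 count in 15 putative unruptured libraries and 2 in 14 putative ruptured ones. Post-hCG it had 30 counts in 10 of 12 unruptured libraries, up to 0.72 TPM, and 71 counts in all 13 ruptured libraries, from 0.13 to 1.05 TPM with a median of 0.39. The ruptured libraries with and without hCG did not overlap, and those of the unruptured side did, since 2 had no count post-hCG. Relative to no hCG, pooled CPM was 40.5-fold higher on the unruptured side (95% counting interval 6.74 to 1654) and 30.1-fold higher on the ruptured side (8.03 to 253), and post-hCG it was 2.07-fold higher on the ruptured side (1.34 to 3.29). These are low levels, at most 13 counts in a library, and Cyp26b1 was under the filter in each comparison. Between the sides post-hCG its log2FC was 1.16 (FDR 0.0526) with edgeR and no filter and 1.19 (FDR 0.0303) with DESeq2.

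The receptors were present in every library at low levels. Rara had medians of 3.47, 3.15, 3.78 and 2.10 TPM and Rarg of 2.30, 1.63, 2.13 and 1.71 TPM on the putative unruptured, putative ruptured, unruptured post-hCG and ruptured post-hCG sides, and the ranges of each overlapped between all neighbouring groups. None of their values passed the threshold. Rara between the sides post-hCG was at −0.41 ± 0.17 (FDR 0.0788). It passed with libraries scaled by totals (−0.55, FDR 0.0351) and with limma on log2(TPM + 1) (−0.90, FDR 0.00567), as well as without replicate 9 of the unruptured (−0.46, FDR 0.0416) or replicate 3 of the ruptured side (−0.51, FDR 0.0197). Rara TPM did not follow its counts on the unruptured side post-hCG, with 14.4 TPM from 12 counts in replicate 9 and 5.57 TPM from 46 counts in replicate 12. Rarg had 0.38 ± 0.18 (FDR 0.0609) for hCG on the ruptured side, which passed without any 1 of 6 ruptured libraries post-hCG (0.42 to 0.43, FDR 0.0356 to 0.0491). The differences between neighbouring groups of both receptors were smaller than their pooled SD. The post-hCG sides of Rara are the ends of its order and not neighbours. Their means on log2(TPM + 1) were 2.58 on the unruptured (SD 0.73) and 1.68 on the ruptured side (SD 0.55).

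**Figure D1:**
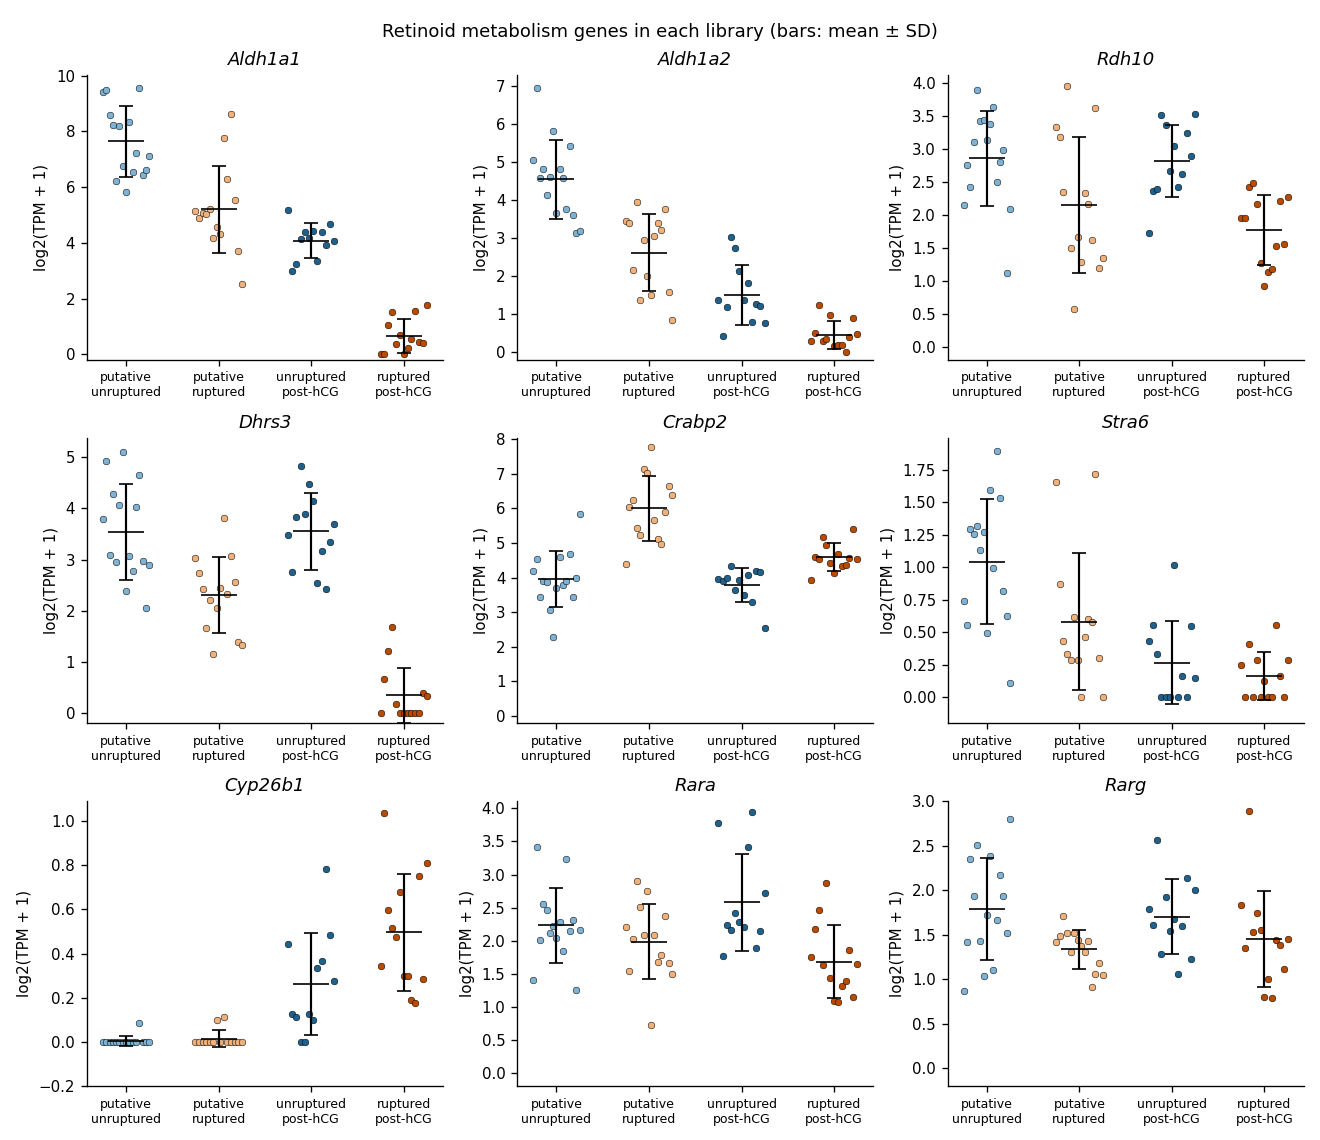
Each point is 1 library, placed by group on the horizontal axis and by log2(TPM + 1) on the vertical axis, which differs in scale between genes; horizontal bars are group means and whiskers ± SD. Aldh1a1 and Aldh1a2 step down over the 4 groups, Dhrs3 is lowest in the ruptured libraries post-hCG, of which 7 of 13 are at 0, Crabp2 is highest on the putative ruptured side and Cyp26b1 is above 0 mostly post-hCG.

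Across the whole table, counts of the retinoid genes can be read against all genes tested. Between the sides without hCG, 7 of the 9 passed the filter, with 1 higher and 3 lower on the putative ruptured side, where 8.84% of 9063 genes were higher and 8.96% lower. Post-hCG 6 passed the filter, with 1 higher and 3 lower on the ruptured side, where 10% of 8585 genes were higher and 11.3% lower. With hCG on the unruptured side 2 of 7 were lower and 0 higher (27.7% and 25.4% of 9320 genes), and on the ruptured side 3 of 6 were lower and 0 higher (30.4% and 29.7% of 8531 genes). In the interaction 3 of 7, Dhrs3, Aldh1a1 and Crabp2, were lower and 0 higher (4.65% and 4.25% of 10013 genes), at −2.33 ± 0.76 (FDR 0.0416) for Aldh1a1 and −1.23 ± 0.41 (FDR 0.0487) for Crabp2. The call for Aldh1a1 was lost without any 1 of 22 libraries (FDR 0.0502 to 0.104) and that for Crabp2 without any 1 of 37 (FDR 0.0503 to 0.0967), while that for Dhrs3 held without each of the 54, at −4.14 without replicate 4 of the ruptured side post-hCG. A gene with counts in 1 group passes the filter through that group, and the 9 were chosen with these contrasts known, so nothing is read from the counts.

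Fewer genes had TPM ranges that did not overlap between the groups at all. Of the genes tested, 1.03% lay wholly lower on the ruptured side post-hCG, Aldh1a1 and Dhrs3 among them, and 1.45% wholly lower with hCG on the unruptured side, Aldh1a1 and Aldh1a2 among them. On the ruptured side 4.34% lay wholly lower with hCG, including Aldh1a1, and 3.43% wholly higher, as did Cyp26b1, which was not itself tested. The 4 comparisons share groups of libraries, so they are not independent of each other.

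**Figure D2:**
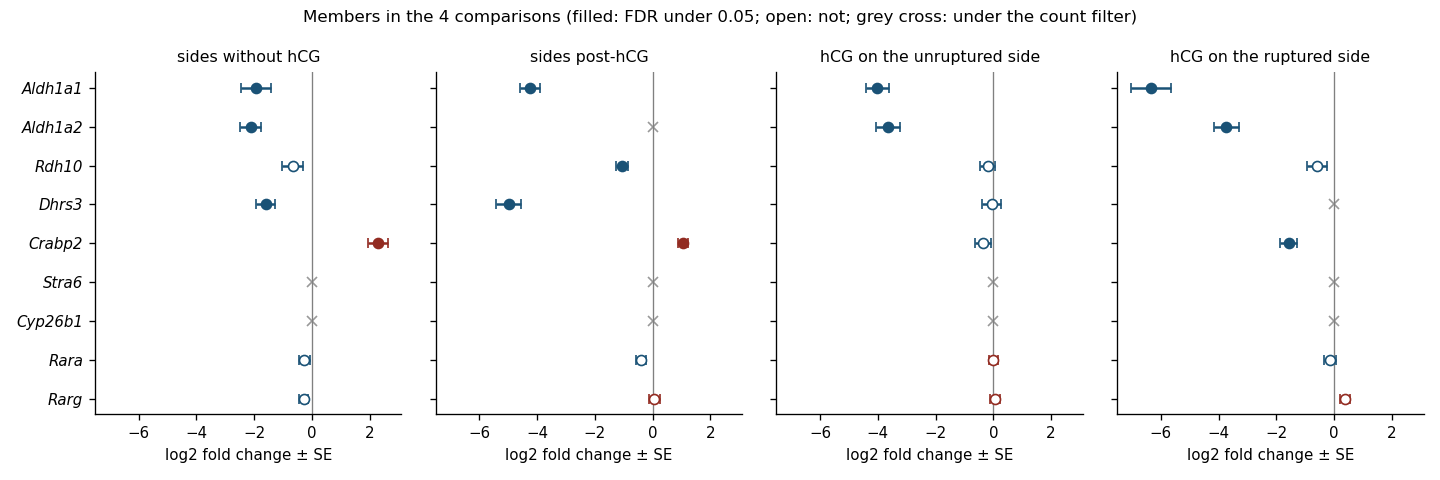
Panels give the 4 comparisons, with log2 fold change ± SE on the horizontal axis and the 9 genes on the vertical axis; positive means higher on the ruptured side in the first 2 panels and higher with hCG in the others. Filled points are past an FDR of 0.05, open points are not, and grey crosses mark genes under the filter, so that Dhrs3 shows −4.99 between the sides post-hCG and −0.06 for hCG on the unruptured side.

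The split of all genes into higher and lower depended on the scaling. Between the sides post-hCG, TMM scaling gave 862 genes higher and 971 lower, library totals 397 and 1830, and limma on log2(TPM + 1) 211 and 2070, with the median log2FC of all genes moving from 0.01 to −0.14 and −0.21. For hCG, limma gave 2091 higher and 1624 lower on the unruptured (median 0.03) and 1450 higher and 2801 lower on the ruptured side (median −0.14). The TMM splits for hCG of 2365 to 2582 and 2532 to 2597 became 1455 to 3844 and 1376 to 4242 with totals, at medians of −0.25 and −0.33. Without hCG the split of the sides went from 801 and 812 to 585 and 905 with totals, and the interaction split of 426 and 466 became 230 and 660 with totals (median −0.11) and 88 and 687 with limma (median −0.18). No retinoid gene past the threshold changed direction under any scaling tried.

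Markers of other cells moved with the sides and with hCG. The 12 theca markers, among them Insl3, a hormone of theca cells, and the collagens of the theca stroma, summed to a median of 537 TPM (range 39.3 to 2790) in putative unruptured, 42.0 (5.76 to 580) in putative ruptured, 350 (77.3 to 1338) in unruptured post-hCG and 6.78 (3.27 to 54.4) in ruptured post-hCG libraries. Of those tested, 6 of 9 were lower on the putative ruptured side (8.96% of all genes) and 5 of 6 on the ruptured side post-hCG (11.3%). Insl3 (−1.49, FDR 0.127), Enpep (−0.98, FDR 0.0975) and Ptch1 (−0.11, FDR 0.668) did not pass between the sides without hCG. Ptch1 did not pass post-hCG either (0.22, FDR 0.377). With hCG 6 of 9 were lower on the unruptured side (27.7% of all genes), from −0.59 for Ptch1 to −2.30 for Dcn, and 3 of 4 on the ruptured side (30.4%). Insl3 had −0.85 ± 0.53 (FDR 0.178) with hCG on the unruptured side. Cyp17a1 had no count on the ruptured side post-hCG and Gli1 none on the unruptured side post-hCG. In tissue RNA, fewer theca cells and less RNA per theca cell cannot be told apart.

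Other markers moved as well. The 9 granulosa markers summed to medians of 2677, 9260, 1399 and 1159 TPM in the same order of groups, with Amh at 0 on both ruptured sides, the 7 immune markers to 32.3, 2.97, 13 and 0.86 TPM, the 6 smooth muscle markers to 34.7, 5.43, 4.54 and 2.38 TPM, and the 3 cumulus markers to 4.18, 7.47, 16.4 and 14.9 TPM. The share of mitochondrially encoded counts averaged 7.38%, 6.88%, 4.44% and 4.12%. Single granulosa markers did not all follow their sum. Without hCG, Esr2, Fshr, Inha, Nr5a2, Hsd17b1 and Cyp19a1 passed as higher on the putative ruptured side. Foxl2 (0.35, FDR 0.387) and Amhr2 (−0.22, FDR 0.248) did not pass. Post-hCG Nr5a2 was higher (0.53, FDR 2.71e-04) and Amhr2 lower (−0.50, FDR 0.0353) on the ruptured side, while Fshr and Inha did not pass. Adgre1, Cd52 and Myh11 were at 0 on the ruptured side post-hCG and Cnn1 on the putative ruptured side. Their part in the differences of the retinoid genes was not tested.

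Within groups, each retinoid gene was compared with the theca sum over the libraries of 1 group on log2(TPM + 1), which made 36 relations with permutation p-values adjusted over all of them. The 3 that passed an adjusted p of 0.05 by Pearson's r were Crabp2 on the putative ruptured side, Rdh10 on the putative unruptured side and Aldh1a1 on the ruptured side post-hCG. Crabp2 was lower where theca markers were higher, with r = −0.84 (permutation p = 2.6e-04, adjusted 0.00936) and Spearman's rho = −0.84 (permutation p = 2.9e-04, adjusted 0.0104) over 14 libraries, and r = −0.86 without the 2 libraries farthest from the median theca level. Rdh10 was higher where theca markers were higher over 15 libraries, at r = 0.79 (permutation p = 0.00109, adjusted 0.0196) and rho = 0.71 (permutation p = 0.00427, adjusted 0.0512), and r was 0.59 without the 2 farthest libraries. Aldh1a1 had r = 0.79 (permutation p = 0.00187, adjusted 0.0224) and rho = 0.60 (permutation p = 0.0348, adjusted 0.159) over 13 libraries of 0 to 16 counts, and r fell to 0.51 without the 2 farthest, so it rests on them.

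The relation of Aldh1a1 depended on which theca genes were used. On the putative unruptured side r with the whole list was 0.05, but with Cyp17a1 and Insl3 alone, the genes of androgen synthesis and of the theca hormone, it was 0.84 (permutation p adjusted 0.00576, n = 15, rho = 0.86, 0.92 without the 2 farthest libraries). In putative ruptured libraries it was 0.58 with the list and 0.80 with these genes (permutation p adjusted 0.00702, n = 14, rho = 0.77, 0.56 without the 2 farthest). On the unruptured side post-hCG r of Aldh1a1 was 0.53 with the whole list (permutation p adjusted 0.188, n = 12, −0.01 without the 2 farthest libraries). With the list without collagens it was 0.80 (permutation p adjusted 0.0172, rho = 0.75, 0.555 without the 2 farthest libraries). On that side it was 0.65 with Cyp17a1 and Insl3 alone (permutation p adjusted 0.115) and 0.39 on log2 CPM (permutation p adjusted 0.348). Dhrs3 and the theca sum had r = 0.73 there (permutation p adjusted 0.059, n = 12, 0.57 without the 2 farthest) and 0.61 on the putative unruptured side (permutation p adjusted 0.0707, n = 15, 0.21 without the 2 farthest). The former was 0.83 on log2 CPM (permutation p adjusted 0.0139) and 0.41 without the collagens (permutation p adjusted 0.459). With Cyp17a1 and Insl3 alone it was −0.08 (permutation p adjusted 0.914, rho = 0.10). The latter was 0.69 without the collagens (permutation p adjusted 0.0271) and 0.60 with Cyp17a1 and Insl3 alone (permutation p adjusted 0.115). Each adjustment ran over the 36 relations of 1 choice of theca genes and scale, and not over the choices.

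The 3 relations that passed also depended on these choices. That of Rdh10 was 0.47 without the collagens (permutation p adjusted 0.293, n = 15) and 0.08 with Cyp17a1 and Insl3 alone (permutation p adjusted 0.914). It passed on log2(TPM + 0.1) (0.81, permutation p adjusted 0.0171) and on log2 CPM (0.79, permutation p adjusted 0.0139). That of Crabp2 was −0.81 without the collagens (permutation p adjusted 0.0135, n = 14) and −0.56 with Cyp17a1 and Insl3 alone (permutation p adjusted 0.134). For Aldh1a1 on the ruptured side post-hCG, r was 0.66 on log2(TPM + 0.1) (permutation p adjusted 0.0895, n = 13) and 0.68 with Cyp17a1 and Insl3 alone (permutation p adjusted 0.115). The latter value rests on at most 2 libraries, since the sum of Cyp17a1 and Insl3 was the same in the other 11. This relation of Aldh1a1 passed without the collagens (0.75, permutation p adjusted 0.0271) and on log2 CPM (0.73, permutation p adjusted 0.0202). Other relations passed in alternatives alone, among them Aldh1a2 on the putative unruptured side without the collagens (0.70, permutation p adjusted 0.0271) and Rara on both putative sides on log2 CPM.

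**Figure D3:**
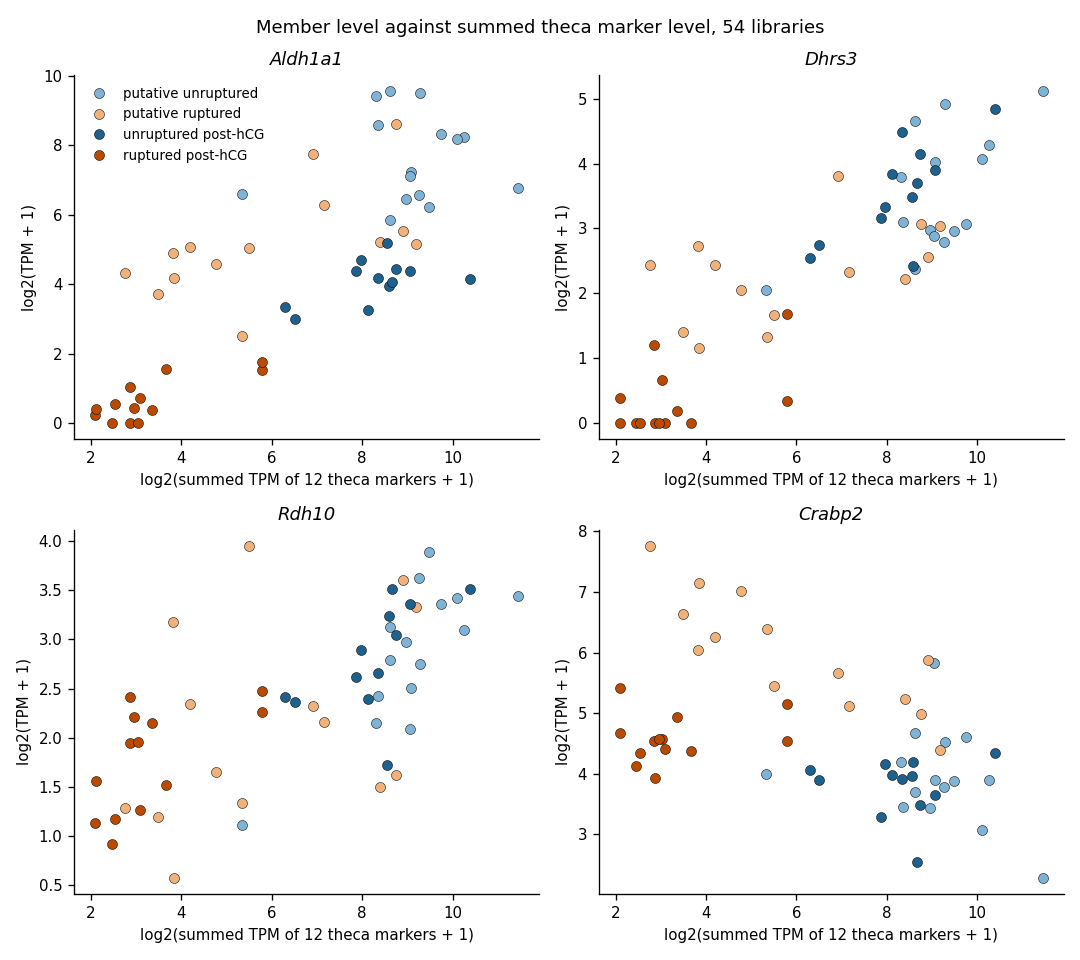
Each point is 1 of 54 libraries, with log2 of the summed TPM of 12 theca markers + 1 on the horizontal axis and log2(TPM + 1) of the named gene on the vertical axis, colored by group. Aldh1a1 of the unruptured side post-hCG lies below every library of the putative unruptured side, and Crabp2 of the putative ruptured side falls as the theca sum rises (r = −0.84).

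Among themselves, over 54 libraries with group means subtracted, the genes that were lower on the ruptured sides varied together. Pearson's r was 0.52 between Aldh1a1 and Aldh1a2, 0.58 between Aldh1a1 and Dhrs3, 0.60 between Aldh1a2 and Dhrs3 and 0.48 between Aldh1a2 and Rdh10, whereas Aldh1a1 and Rdh10 had 0.10. Crabp2 had −0.37 with Rdh10 and −0.37 with Stra6. The points share libraries and their depth, so these values describe the libraries.

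On the same measure, over the 9887 genes that averaged 1 TPM or more, the genes most like Aldh1a1 were Sepp1, the plasma selenoprotein (r = 0.82), RP23-162H6.1 (0.79) and Insl3 (0.76). Those most like Aldh1a2 were Tmem176a (0.73), Prss35 (0.73) and the small heat shock protein Hspb8 (0.72), and those most like Dhrs3 were Litaf (0.72), the complement component C2 (0.71) and Pcolce, an enhancer of procollagen processing (0.71). Rdh10 was most like Socs5 (0.80), the Wnt receptor Fzd1 (0.76) and the transcription factor Cebpd (0.76). Crabp2 was most like Cyb5a, cytochrome b5 (0.85), Inhba, the activin subunit of granulosa cells (0.75), and Nap1l5 (0.75). The receptors had lower values, with Akt1s1 (0.57), Glud1 (0.57) and Pip5k1c (0.55) for Rara and Tbc1d10a, Tmem63b and Tmem132a (0.65, 0.65 and 0.64) for Rarg. Stra6 and Cyp26b1 had too few counts to be ranked.

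The rest of the pathway was taken from 8 lists of 59 other genes, of which 7, including Cyp26a1 and Cyp26c1, the other retinoic acid hydroxylases, had no count in any library. Between the sides without hCG, 2 of the 24 tested were higher and 4 lower on the putative ruptured side, with a median log2FC of −0.01 beside −0.01 for all genes. Of all genes tested there, 8.84% were higher and 8.96% lower. Post-hCG 1 of 22 was higher and 2 lower on the ruptured side (median 0.00 beside 0.01), where 10% of all genes were higher and 11.3% lower. With hCG 4 of 25 were higher and 9 lower on the unruptured side (median −0.25 beside −0.03), and 5 of 21 were higher and 8 lower on the ruptured side (median −0.16 beside 0.00). The number past the threshold in either direction, 13 in each hCG comparison, stands beside backgrounds of 25.4% and 27.7%, and of 29.7% and 30.4%.

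Among carriers, Rbp4, the retinol carrier of blood, rose with hCG on the unruptured side by 1.71 ± 0.34 (FDR 7.99e-05), from a median of 2.30 TPM to 10.2, and was lower on the ruptured side post-hCG (−1.20 ± 0.22, FDR 1.16e-04). Fabp5, which can also carry retinoic acid, was lower with hCG on the ruptured side (−0.32 ± 0.13, FDR 0.0353).

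Of the 17 other genes that convert retinol and retinal, 7 were tested in each comparison. Adh1, an alcohol dehydrogenase that oxidizes retinol, was lower on the ruptured side in both media (−1.22 ± 0.38, FDR 0.0230 and −1.17 ± 0.26, FDR 0.00133) and with hCG on both sides (−2.03 ± 0.37, FDR 2.5e-05 on the unruptured and −1.97 ± 0.33, FDR 4.64e-06 on the ruptured side), with medians of 171, 79.9, 36.9 and 16.0 TPM. Its level was thus above that of Aldh1a1 in each group by median. Rdh11, a retinal reductase, was higher on the putative ruptured side (0.43 ± 0.13, FDR 0.0211) and with hCG on the unruptured side (0.39 ± 0.14, FDR 0.0178). Dhrs4, another reductase, fell with hCG, at −0.52 ± 0.16 (FDR 0.00758) on the unruptured and −0.93 ± 0.16 (FDR 1e-05) on the ruptured side, where Retsat, a retinol saturase, rose by 0.73 ± 0.18 (FDR 7.22e-04).

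In ester storage, Lipe, the hormone-sensitive lipase that also releases retinol from its esters, rose with hCG by 1.37 ± 0.12 (FDR 3.74e-11) on the unruptured and 1.74 ± 0.13 (FDR 1.41e-13) on the ruptured side and was higher on the ruptured side post-hCG (0.45 ± 0.12, FDR 0.00618). Lrat, which makes retinyl esters, had 16 counts in putative unruptured, 1 in putative ruptured, 6 in unruptured post-hCG and 0 in ruptured post-hCG libraries. Of the other dehydrogenases of retinoic acid synthesis, Aldh1a7 was tested without hCG and was lower on the putative ruptured side (−1.48 ± 0.52, FDR 0.0456), with reads that could belong to Aldh1a1. Aldh1a3 had medians of 0.59, 0.835, 0.62 and 0.76 TPM and was under the filter, so that it did not follow Aldh1a1 and Aldh1a2 in level.

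All 8 coregulators of the receptors were tested. Ncoa1, a coactivator, was higher on the putative ruptured side (0.53 ± 0.14, FDR 0.00659), and 0 of 8 passed between the sides post-hCG. With hCG on the unruptured side 1 rose and 4 fell, where 25.4% of all genes tested were higher and 27.7% lower. On the ruptured side 2 rose and 3 fell, where 29.7% were higher and 30.4% lower. Nrip1, a corepressor, and Ncoa2 were among those that fell on the unruptured side. Nrip1 was at −1.44 ± 0.14 (FDR 1.78e-10) with hCG on the unruptured and −1.61 ± 0.11 (FDR 5.03e-14) on the ruptured side.

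Among the other receptors, Rxra, a retinoid X receptor, was lower with hCG on the unruptured (−0.54 ± 0.17, FDR 0.00852) and the ruptured side (−0.75 ± 0.21, FDR 0.00239), and Rarb, under the filter, had 40.3, 5, 45.3 and 6.03 counts. Of the 15 other retinoic acid response genes, Tgm2, the tissue transglutaminase, was lower on the putative ruptured side (−1.74 ± 0.42, FDR 0.00378), and 0 of the 2 tested passed between the sides post-hCG. With hCG, Tgm2 rose on the ruptured side by 1.23 ± 0.38 (FDR 0.00602). In the interaction 2 of 26 other pathway genes passed, where 4.25% of all genes tested were higher and 4.65% lower. They were Tgm2 at 1.81 ± 0.48 (FDR 0.0112) and Rarres2, which encodes chemerin, at −2.29 ± 0.70 (FDR 0.0280). Stra8, the germ cell gene that retinoic acid induces before meiosis, had 3 counts on each side post-hCG and 0 without hCG.

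**Figure D4:**
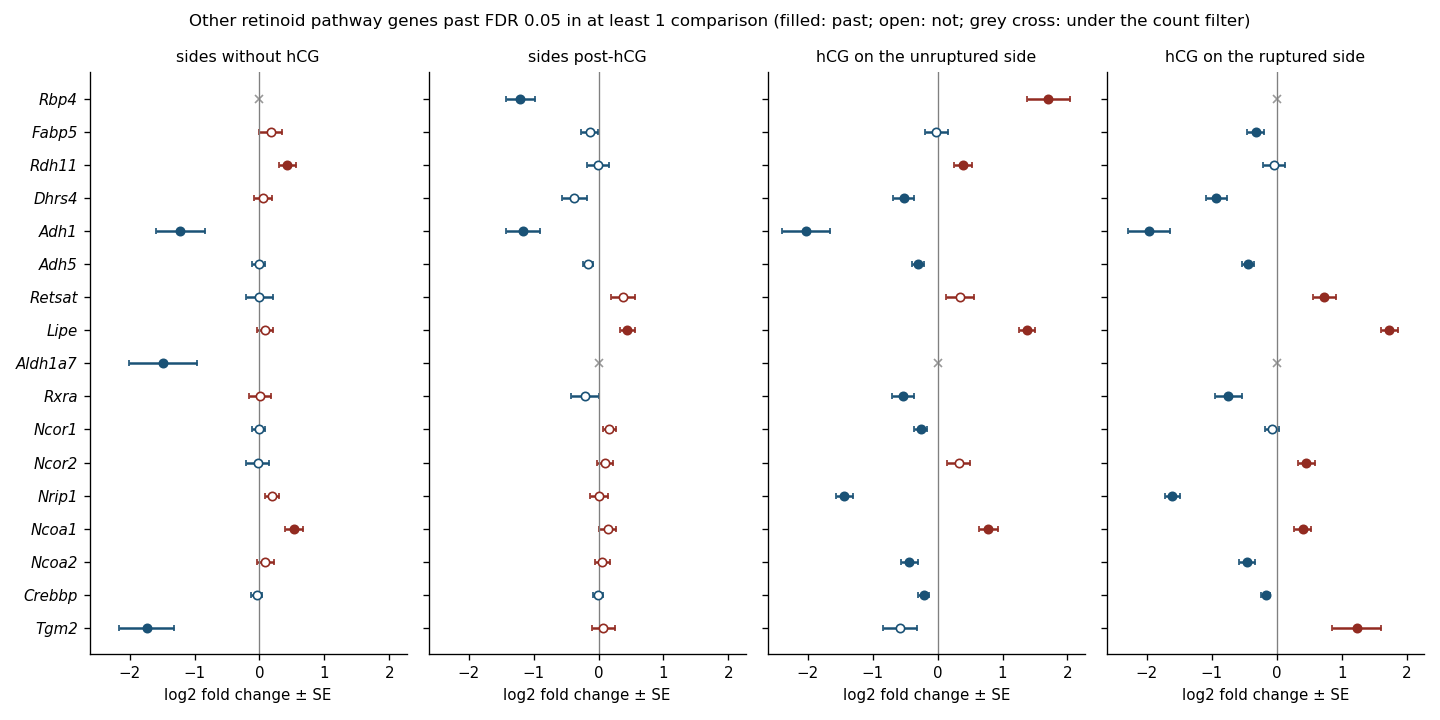
Points show 17 other pathway genes past an FDR of 0.05 in at least 1 of the 4 comparisons, with log2 fold change ± SE on the horizontal axis, filled where past, open where not, and as grey crosses where under the filter. Adh1 is left of 0 in all 4 panels, Lipe is right of 0 with hCG on both sides, and Tgm2 changes sign between hCG on the unruptured side, where it did not pass, and on the ruptured side.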

How the data were processed

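RNA of 54 microdissected follicle sides was amplified with Smart-Seq2, made into libraries with Nextera XT and sequenced on a NextSeq instrument. Per the labels and the study's methods, the authors aligned reads to GRCm38 with HISAT2, and used ComBat-seq for batches and DESeq2 for tests. The counting program, the annotation and the batches are not given in the sources used here, nor whether the deposited counts precede batch correction. The authors deposited estimated counts per gene, of which 72.2% of the values above 0 were whole (tolerance 1e-09), and these were rounded here before testing. The authors also deposited TPM, a level relative to transcript length and library size, which summed to between 586000 and 678000 per library.

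Each comparison was fitted to its own groups with edgeR (version 4.0.16, R 4.3.3), using TMM scaling, filterByExpr set to 10 counts per library and 15 in all, and the quasi-likelihood F-test with Benjamini-Hochberg adjustment over all genes tested and a threshold of 0.05. The interaction used all 4 groups. Log2 fold changes are ruptured relative to unruptured, or with relative to without hCG. For genes under the filter, pooled counts were compared with exact 95% intervals that cover counting error only. Correlations used 100000 permutations and all permutation p-values were two-sided. The alternatives were DESeq2 (1.42.0), library totals, other filters, limma (3.58.1) on log2(TPM + 1) and log2(TPM + 0.1), 1 fit of all groups, a replicate block and leaving out each library. Leaving out libraries with over 10 TPM of oocyte markers was chosen after seeing the data. The tests were checked on simulated counts.

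The 9 genes and all lists were chosen with earlier results of these data known. All 9 retinoid genes were named, and of the 59 other pathway genes in 8 lists those past the threshold with the largest changes, at most 3 per list and comparison, as well as the 3 genes most correlated with each retinoid gene of at least 5 counts on average. A pathway gene counted among them is not reported here. Lrat, Rarb, Aldh1a3 and Stra8 were named after their values were seen. Groups and replicate numbers came from the labels.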

Additional observations from a re-analysis of the deposited data

Results flagged for a closer look

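In 5 genes the side difference itself differed between the media, by the interaction test over 54 libraries. Dhrs3 had −1.60 without hCG and −4.99 post-hCG, and an interaction of −3.40 (edgeR FDR 4.27e-04) that held without each of the 54 libraries.

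Aldh1a1 had −1.93 and −4.25, and an interaction of −2.33 (FDR 0.0416). This call was lost without any 1 of 22 libraries (FDR 0.0502 to 0.104), which were replicates 1, 2, 3, 5, 6, 7, 8, 9, 11 and 12 of the ruptured and 1, 5, 7, 9 and 11 of the unruptured side post-hCG, and replicates 9 and 11 of the putative ruptured and 5, 7, 10, 11 and 13 of the putative unruptured side.

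Crabp2 had 2.29 and 1.05, and an interaction of −1.23 (FDR 0.0487). This call was lost without any 1 of 37 libraries (FDR 0.0503 to 0.0967), which were replicates 1, 2, 3, 5, 6, 7, 8, 9, 10, 11 and 13 of the ruptured and 1, 2, 3, 4, 5, 6, 8, 10 and 11 of the unruptured side post-hCG, and replicates 6, 7, 8, 13 and 14 of the putative ruptured and 1, 2, 3, 4, 5, 6, 7, 8, 10, 11, 13 and 14 of the putative unruptured side.

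Of the other pathway genes, Tgm2 had −1.74 without hCG and 0.07 post-hCG, with an interaction of 1.81 (FDR 0.0112). Rarres2 had −0.07 without hCG and was under the filter post-hCG, with an interaction of −2.29 (FDR 0.0280) and median levels of 5.71 TPM in unruptured and 0.20 TPM in ruptured libraries post-hCG. When each library was left out in turn, 1 to 2 other pathway genes passed in the interaction, and which genes these were was not recorded.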

How the results depend on the processing

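None of the retinoid genes past the threshold reversed direction under an alternative. Among values that did not pass, the sign changed under at least 1 alternative for Rarg between the sides post-hCG (0.06, with −0.07 for library totals and −0.25 for limma on log2(TPM + 1)), for Rara, Rarg and Dhrs3 with hCG on the unruptured side (0.00, 0.05 and −0.06, with −0.20 and −0.16 for totals and 0.01 for limma) and for the Aldh1a2 interaction (−0.09, with 0.87 for limma), none of them past the threshold there. Counts of calls stayed within 1.5 times the reported count except as follows. Between the sides without hCG, limma called 999 genes on log2(TPM + 1) and 1012 on log2(TPM + 0.1) against 1613, and 2 other pathway genes with either pseudocount against 6. Between the sides post-hCG, 8 other pathway genes passed with DESeq2, 10 with no filter and 6 with all 4 groups in 1 fit, against 3. For hCG, retinoid genes called went from 2 to 4 on the unruptured and from 3 to 6 on the ruptured side with DESeq2 and with no filter, and DESeq2 called 20 other pathway genes on the ruptured side against 13. In the interaction 1 retinoid gene passed with no filter against 3, and 1 other pathway gene with a mean of at least 20 counts against 2. Relations with theca markers numbered 6 without the collagens and 6 on log2 CPM, against 3.

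Leaving out each library in turn gave 1401 to 1724 and 1611 to 1904 genes between the sides, 4801 to 5012 and 4964 to 5153 for hCG and 793 to 999 in the interaction. Retinoid genes called were 4, 4 to 5, 2, 2 to 4 and 1 to 3 in that order, and other pathway genes 4 to 6, 3, 12 to 15, 11 to 13 and 1 to 2. Aldh1a2 passed the filter for hCG on the ruptured side in 14 of 27 such fits. Without the 2 libraries rich in oocyte markers, the comparisons that hold them gave 1517, 4887, 5010 and 874 genes, and the interaction of Crabp2 was −1.24 (FDR 0.0559).

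With no filter the interaction had an FDR of 0.0633 for Aldh1a1 and 0.0793 for Crabp2, and that of Aldh1a1 was −0.99 (FDR 0.299) with limma on log2(TPM + 1). Libraries of the same number mostly did not vary together (correlation over 0.1 in 1 of 14 and 2 of 12 pairs, at most 0.309). A low correlation between sides that differ in expression cannot tell whether they came from the same follicle. With a replicate block, 1414, 1743, 4455, 4989 and 992 genes passed, and the Aldh1a1 interaction was −1.70 (FDR 0.130). Depth limits Cyp26b1, Stra6 and, on the ruptured side post-hCG, Dhrs3.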
